A study of Phaffia rhodozyma with 29 samples.

Results

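The comparison described here sets the SRE1 deletion strain (sre1-) of Xanthophyllomyces dendrorhous, a red yeast whose other name is Phaffia rhodozyma, against its wild-type parent CBS 6938. It was chosen by strain label and by count table. It comprises 6 of the 29 samples in the series, namely 3 RNA-seq libraries of sre1- and the 3 wild-type libraries whose titles end in Ne, called wild type (Ne). All 6469 genes of the count tables were included. The 12 other RNA-seq libraries are a second wild-type set, called wild type (N), a strain with an interrupted CYP61 locus (cyp61-), a strain with both changes (cyp61- sre1-) and a strain with FLAG-tagged Sre1, and the other 11 samples are ChIP-exo libraries. All strains derive from CBS 6938 and were grown in standard culture to late exponential phase, with 3 biological replicates each per the design text. The tables of sre1- and wild type (Ne) carry headers of the same form, which name neither read pairing nor trimming, while the headers of the other 4 groups name both. The extent of the deletion, the selection marker and whether sre1- is a single transformant are not stated in the labels.

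Sre1 belongs to the sterol regulatory element-binding protein family, transcription factors that are held in membranes and released by cleavage when sterols run low. In fungi the released part enters the nucleus and activates genes of sterol synthesis. Xanthophyllomyces dendrorhous makes the red carotenoid astaxanthin from the same isoprenoid precursors that feed ergosterol synthesis, and CYP61 encodes the C-22 sterol desaturase late in ergosterol synthesis. The question of the comparison is which transcripts depend on SRE1 in cells whose sterol pathway has not been interrupted. The files identify genes by number and contig and pair them with no name or product, so the genes below carry no known role. The level of SRE1 itself was not checked, nor whether SRE1 is one of the genes below.

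Total counts were 12401313 to 16754085 in wild type (Ne) and 10964047 to 12884497 in sre1-. The C library of each strain stood apart from the A and B libraries. Among the 5286 genes with a mean of at least 10 CPM (read counts scaled to library size by the TMM method) over the 6 libraries, 499 (9.44%) lay at least 2-fold from the mean of the other 2 libraries in wild type (Ne) C and 429 (8.12%) in sre1- C, against 60 to 209 genes in the other 4 libraries. The C libraries departed in the same direction: 213 genes were at least 2-fold away in both and on the same side, 122 higher and 91 lower, and 2 genes were on opposite sides. On the principal components of the 6 libraries, the first, with 63.7% of the variance, separated the C libraries from the rest and not the strains. The cause of this departure was not tested, and the counts of calls and the fold changes of the called genes are also given without these 2 libraries. Percentiles, shares by level and contig medians include them.

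**Figure D1:**
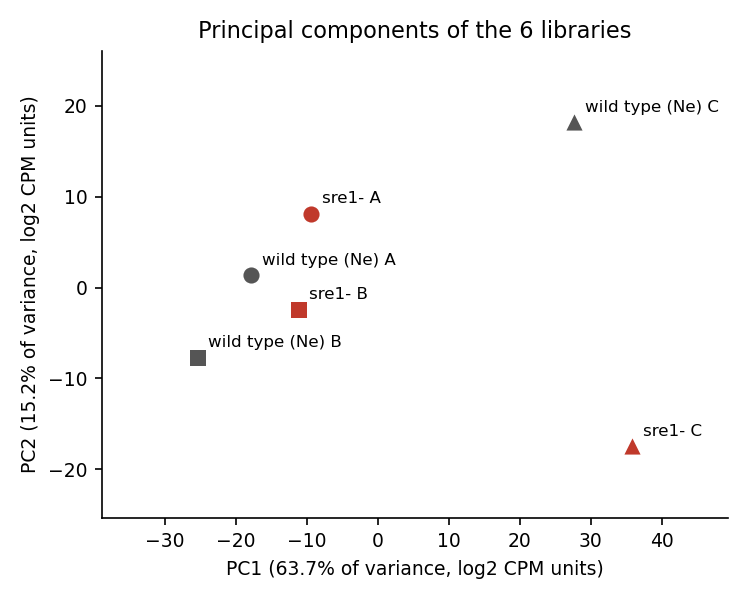
The first 2 principal components of log2 CPM of all genes tested, with the percent of variance on each axis, for the 3 wild type (Ne) libraries (grey) and the 3 sre1- libraries (red); letters A, B and C are circles, squares and triangles. Both C libraries lie to the right on the first component (63.7% of variance), and the A and B libraries of both strains lie together to the left.

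Few transcripts passed the test of a change after SRE1 deletion in the wild-type background. Of 6228 genes tested, 14 (0.225%) passed an edgeR adjusted p under 0.05, 11 lower in sre1- (0.177%) and 3 higher (0.0482%). The test fitted all 18 RNA-seq libraries, and 306 genes had an unadjusted p under 0.05. Of the 14 genes, 9 fell at least 2-fold and 3 rose at least 2-fold. The 11 lower genes had a median log2 fold change of -1.47 and the 3 higher genes one of 2.01, against 0.01 over all genes tested. These genes are the ones the test picked for their difference, so the medians describe them and support nothing further. In all 14 genes the 3 libraries of one strain lay above the 3 of the other, as in 6.68% of all genes tested (222 higher and 194 lower in sre1-), and the test chose them for this same difference. It follows that their direction was the same within each of the A, B and C pairs, which is no further result. The largest adjusted p among the called genes was 0.0436, and the first gene beyond the threshold, on contig 0, had an adjusted p of 0.0535 and a log2 fold change of -1.31.

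The number of calls depended on the libraries and the terms in the fit. The biological coefficient of variation was 27.7% in wild type (Ne) and 25.3% in sre1-, above the 11.7% to 17.8% of the other 4 groups. The fit to all 18 libraries had a common value of 19.96%, against 26.5% over these 6 libraries alone, a smaller spread than these strains showed. The test itself uses a spread estimated for each gene. The fits also differ in residual degrees of freedom, 12 with 18 libraries, 4 with the 6 alone and 2 with the replicate letter as a block. The SE was 0.191 with 18 libraries and 0.187 with the 6 alone for g4728. It was 0.314 and 0.357 for g904, 0.388 and 0.411 for g1283, and 0.284 and 0.356 for g2015. The parts that spread and degrees of freedom play in the calls were not tested. Fitted alone, the 6 libraries gave 1 call (0.0162%), the fall of g4728, with 101 genes at an unadjusted p under 0.05. With the replicate letter as a block, which takes out what the same-letter libraries share, the 6 libraries gave 20 calls (0.325%), 9 higher (0.146%) and 11 lower (0.179%). Of the 14 genes, 11 were among these 20, 8 lower and 3 higher. The other 3 lower genes, on contigs 0, 3 and 6, had an adjusted p of 0.0680 there. With all 18 libraries and the letter as a block within each set of count tables, a fit chosen after seeing the data, 22 genes were called (0.353%), among them all 14. DESeq2 called 25 (0.395%), again with all 14 among them. Leaving out a single library left 3 calls when it was the A library of either strain or sre1- B, 6 when it was wild type (Ne) B and 8 when it was sre1- C, and raised them to 37 when it was wild type (Ne) C. Leaving out both C libraries gave 35 (0.561%), with 12 of the 14 genes among them, or 111 (1.8%) with only the remaining 4 libraries in the fit, with all 14 among them.

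**Figure D2:**
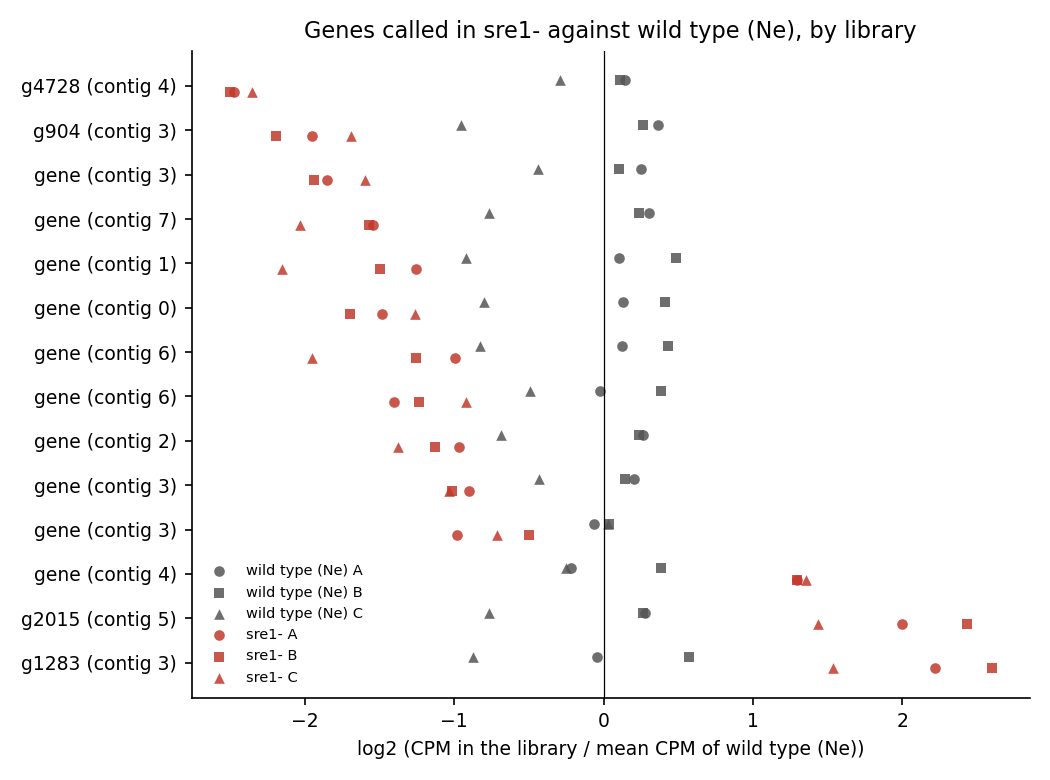
For each of the 14 called genes (rows), the log2 ratio of the CPM in a library to the mean CPM of wild type (Ne), with wild type (Ne) in grey and sre1- in red and the letters as circles (A), squares (B) and triangles (C). In every row the 3 red points lie on one side of the 3 grey points; rows without an identifier are given by contig.

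Gene g4728 on contig 4 fell the most of the called genes. Its level was 211, 206 and 156 CPM in wild type (Ne) A, B and C, and 34.4, 33.7 and 37.3 CPM in sre1- A, B and C. The lowest wild-type library was thus above every sre1- library by a wide margin, and the sre1- libraries were close to each other. The means were 191 ± 30.6 and 35.1 ± 1.92 CPM (SD, n = 3), a 5.43-fold fall (log2 fold change -2.44 ± 0.19 SE, edgeR adjusted p = 2.57e-06). The fall passed the threshold in each of the 15 alternative settings run, with log2 fold changes from -2.64 to -1.78 and adjusted p of at most 0.0124. Without both C libraries the log2 fold change was -2.62. Within the letter pairs it was 6.11-fold in A, 6.11-fold in B and 4.16-fold in C.

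Gene g904 on contig 3 fell by the next largest amount. Its level was 243, 227 and 97.3 CPM in wild type (Ne) A, B and C, and 48.9, 41.3 and 58.4 CPM in the sre1- libraries of the same letters. The groups did not overlap, but wild type (Ne) C was much lower than the other wild-type libraries. The log2 fold change was -1.93 ± 0.31 (SE, edgeR adjusted p = 0.0175), and -1.86 ± 0.30 with the letter as a block (edgeR adjusted p = 0.0258). Within pairs the fall was 4.96-fold in A, 5.48-fold in B and 1.66-fold in C. Without both C libraries the log2 fold change was -2.38. The call was lost with the 6 libraries alone (edgeR adjusted p = 0.731) and when the A or B library of either strain was left out (edgeR adjusted p = 0.0642 to 0.134).

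The 9 other lower genes lay on contigs 0, 1, 2, 3, 6 and 7, with log2 fold changes from -1.79 to -0.72. The one with the highest count of reads, on contig 7, was at 2327, 2230 and 1110 CPM in wild type (Ne) A, B and C and at 647, 635 and 462 CPM in sre1-. It was 3.25-fold lower (edgeR adjusted p = 0.0191). The call was lost with the 6 libraries alone (edgeR adjusted p = 0.731) and without any single one of them other than wild type (Ne) C (edgeR adjusted p = 0.0757 to 0.129). A gene on contig 3 had the second lowest adjusted p of the lower genes (edgeR, 0.000749) and fell 3.46-fold, from 177, 160 and 110 CPM to 41.2, 38.7 and 49.2 CPM. Of the 15 settings, the 6 libraries alone ended its call (edgeR adjusted p = 0.210). In 10 of the 11 lower genes wild type (Ne) C was the lowest wild-type library. The exception was the gene with the smallest fold change of the 14, on contig 3, at 74.6, 80.2 and 79.5 CPM in wild type (Ne) and 39.5, 55.1 and 47.7 CPM in sre1- (1.64-fold lower, edgeR adjusted p = 0.0436). Its call was lost with the block on the 6 libraries (edgeR adjusted p = 0.0680), with the 6 libraries alone (1.00), without both C libraries (0.1002) and without any single library other than wild type (Ne) C (0.0787 to 0.237). With wild type (N) as the control its direction turned, to a log2 fold change of 1.63 (edgeR adjusted p = 1.43e-06). Without both C libraries the log2 fold changes of the 9 genes ran from -2.08 to -0.71. Of the 11 lower genes, 4 lay on contig 3, which held 715 of the 6228 genes tested.

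**Figure D3:**
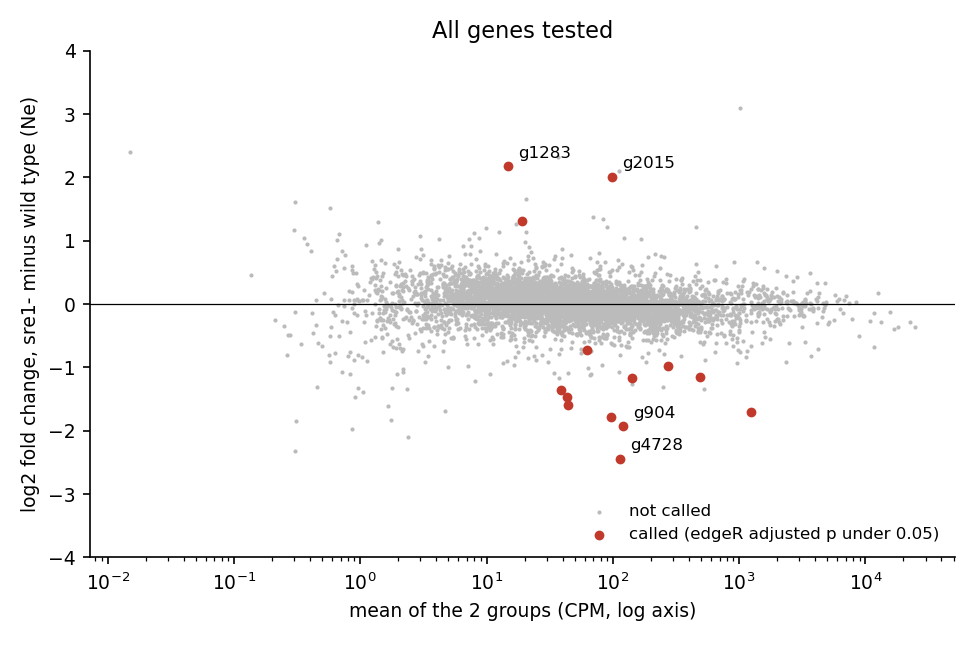
The log2 fold change of sre1- against wild type (Ne) for all 6228 genes tested, against the mean CPM of the 2 groups on a log axis; called genes in red, with the 4 genes named in the text. Of the 14 called genes, 11 lie below 0 and 3 above it, all at mean levels over 10 CPM.

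Of the 3 genes that rose, g1283 on contig 3 had the largest fold change. It was at 5.17, 7.94 and 2.91 CPM in wild type (Ne) A, B and C and at 24.9, 32.3 and 15.5 CPM in sre1-. The groups did not overlap, and in both strains B was the highest library and C the lowest. The rise was 4.53-fold (log2 fold change 2.18 ± 0.39 SE, edgeR adjusted p = 0.0220), and its SE fell to 0.18 with the letter as a block (edgeR adjusted p = 0.000365). It was 4.72-fold in the A pair, 4.03-fold in the B pair and 5.14-fold in the C pair, and the log2 fold change without both C libraries was 2.12. The call was lost with the 6 libraries alone (edgeR adjusted p = 0.731) and without wild type (Ne) A, sre1- A or sre1- B (edgeR adjusted p = 0.0847 to 0.183).

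Gene g2015 on contig 5 was at 47.2, 46.9 and 22.9 CPM in wild type (Ne) A, B and C and at 156, 211 and 105 CPM in sre1-. Here too each sre1- library was above every wild-type library, and C was the lowest library of each strain. The rise was 4.03-fold (log2 fold change 2.01 ± 0.28 SE, edgeR adjusted p = 0.00393). It passed the threshold in 14 of 15 alternative settings, the exception being the 6 libraries fitted alone (edgeR adjusted p = 0.731). Within pairs the rise was 3.29-fold, 4.48-fold and 4.58-fold, and without both C libraries the log2 fold change was 1.96.

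Both of these called genes were at far lower levels outside these 6 libraries. Gene g2015 was at 6.13 to 8.53 CPM in wild type (N) and at 0.27 to 3.64 CPM in the tagged strain, the double mutant and cyp61-. Gene g1283 was at 1.11 to 1.75 CPM in wild type (N) and at 0.15 to 0.79 CPM in those 3 strains. Wild type (Ne) exceeded wild type (N) by 2.39 ± 0.30 on the log2 scale for g2015 (SE, edgeR adjusted p = 2.10e-05) and by 1.98 ± 0.43 for g1283 (edgeR adjusted p = 0.00121). The wild-type sets differ in their count tables as well as in their libraries, and these cannot be told apart here.

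**Figure D4:**
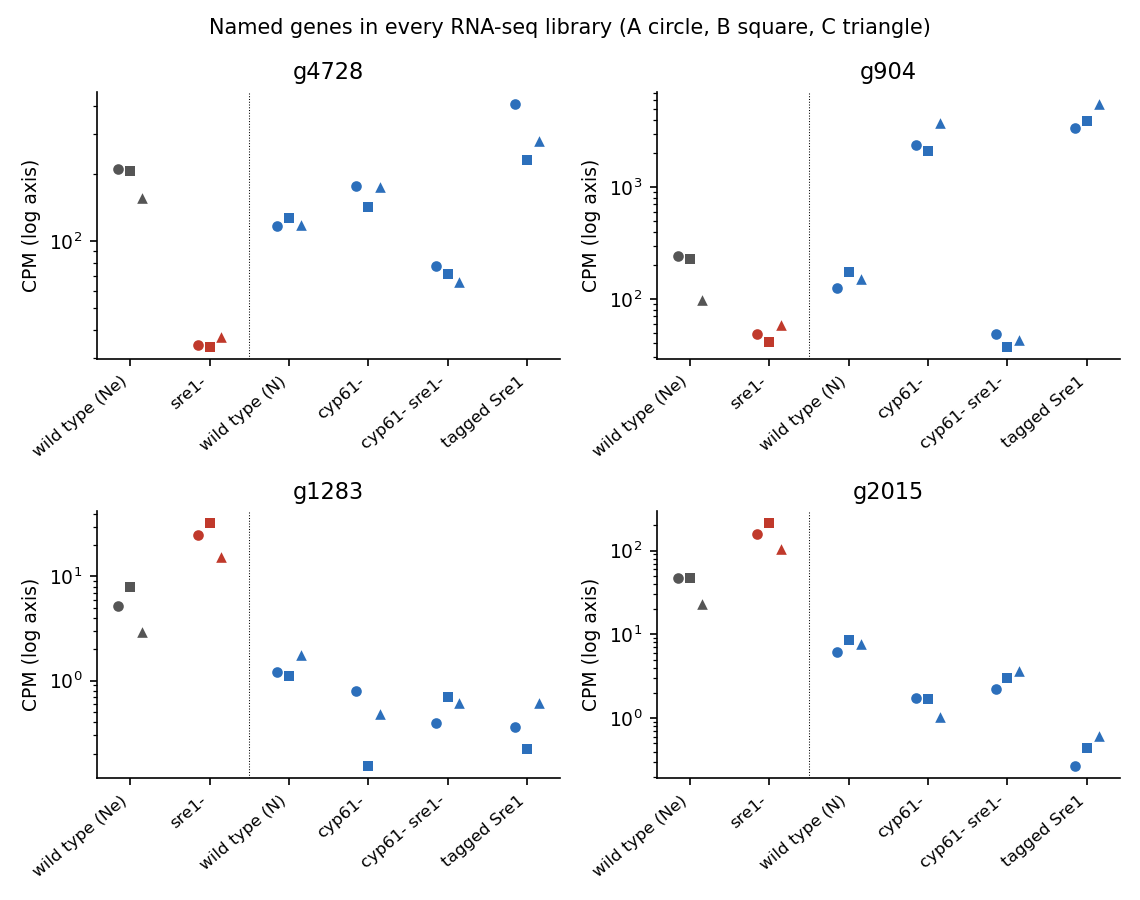
CPM (log axis) of g4728, g904, g1283 and g2015 in all 18 RNA-seq libraries, by group, with letters as circles (A), squares (B) and triangles (C); the dotted line divides the 2 sets of count tables. Levels of g4728 and g904 are lower in sre1- and in cyp61- sre1- than in the strain each is compared with, while g1283 and g2015 are highest in sre1-.

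The third gene that rose, chosen for description after its values were seen, is the one numbered immediately before g4728 on contig 4. It was at 9.48, 14.4 and 9.24 CPM in wild type (Ne) and at 27.0, 27.0 and 28.2 CPM in sre1-, a 2.48-fold rise (edgeR adjusted p = 0.0208). The call was lost with the 6 libraries alone (edgeR adjusted p = 0.731), without both C libraries (0.0784, log2 fold change 1.17), and without wild type (Ne) A or any one sre1- library (0.0601 to 0.148). The fall of g4728 and the rise of its neighbour moved their ratio of reads, which is not corrected for gene length, from 14.4 to 22.2 over the wild type (Ne) libraries to 1.25 to 1.32 over the sre1- libraries. In the double mutant, the other strain without SRE1, the ratio was 1.10 to 1.51. In the 3 other groups it was 5.30 to 10.3 in wild type (N), 6.81 to 8.47 in cyp61- and 4.13 to 8.50 in the tagged strain. Both genes were chosen for their change in sre1-, so the separation of sre1- from wild type (Ne) in this ratio is no test. The level of the neighbour did not follow SRE1 across all groups, at 52.9 ± 4.17 CPM in the tagged strain and 53.3 ± 10.9 CPM in the double mutant, both above its 27.4 CPM in sre1- (SD, n = 3). The 9 other genes within 5 places of g4728 by number had log2 fold changes from -0.38 to 0.61 in sre1- and none passed the threshold (edgeR adjusted p of at least 0.737). The sources do not state whether counting used strand, and the reads of overlapping neighbours could then be mixed. Whether these genes overlap is not known, and such mixing was not tested.

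The letter as a block added 9 calls beyond the 14 genes, 6 higher and 3 lower in sre1-. In 6 of these 9 the groups overlapped, and in 6 both C libraries lay at least 2-fold from the A and B libraries of their strain. A gene on contig 6 was at 16.7, 13.6 and 111 CPM in wild type (Ne) A, B and C and at 62.7, 46.0 and 252 CPM in sre1- (edgeR adjusted p with the block = 0.00321). Each sre1- library of it was above the wild-type library of the same letter, while the C library of each strain was far above A and B. A gene on contig 3 was at 67.2, 76.5 and 11.7 CPM in wild type (Ne) and at 28.3, 35.8 and 5.19 CPM in sre1- (edgeR adjusted p with the block = 0.00648), lower in every pair. All 9 had the same direction in the 3 pairs, as did 1905 of all genes tested, 1035 higher and 870 lower. Only 10 genes with a mean of at least 10 CPM differed at least 2-fold the same way in all 3 pairs, 4 higher and 6 lower. The fit with the block called all 10, but it tests the same differences within letters by which they were picked.

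Most transcripts differed little between the strains. Among genes with a mean of at least 10 CPM, the 5th and 95th percentiles of the fold change were 0.762 and 1.28. A change of 2-fold or more, up or down, lay outside the 95% confidence interval for 92.8% of the 3539 genes at 10 to 100 CPM, 91.3% of the 1524 genes at 100 to 1000 CPM and 84.8% of the 223 genes at 1000 CPM or more, with the spread shared by all groups. With the spread and the degrees of freedom of the 6 libraries alone the shares were 85.7%, 84.1% and 74.0%. At 1 to 10 CPM the share was 68.7% of 866 genes. An interval could be computed for 75 of the 76 genes under 1 CPM, and there the share was 5.33%. A 2-fold change of a transcript that rare could thus usually not be excluded. These shares do not measure how often a 2-fold change would be called. Of all genes tested, 70 (1.12%) differed at least 2-fold, 36 of them at a mean of at least 10 CPM, and 12 of the 70 were called. Of the 14 called genes, 8 were at 10 to 100 CPM, 5 at 100 to 1000 CPM and 1 above. The 20 genes with the most reads took 24.7% of counts in wild type (Ne) and 21.2% in sre1-. Their log2 fold changes ran from -0.68 to 0.18. None was called, against 0.225% of all genes tested. With so low a share, the lack of calls among 20 genes is no result about abundant genes.

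No abundant transcript disappeared from sre1-, though which numbered gene is SRE1 is not known, so its own transcript could not be followed. Of the 4989 genes at 10 CPM or more in all wild type (Ne) libraries, none was at or below 1 CPM in all sre1- libraries, and no gene showed the reverse. Among rare transcripts, 2 genes had 0 counts in all sre1- libraries and 1 to 7 in each wild type (Ne) library, too few to be tested. The nearest was g4728, whose highest sre1- library stood at 24.0% of its lowest wild-type library; for the next gene this was 44.9%. Changes were not concentrated in whole contigs: on the 11 contigs with at least 100 genes tested, the median log2 fold change ran from -0.01 to 0.04.

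The same deletion in cells with an interrupted CYP61 gene was measured in other libraries, although the fit to all 18 set the spread for both contrasts. All 11 lower genes also passed the threshold as lower when the double mutant was set against cyp61-, as did 11.9% of all genes, and the libraries of the 2 strains did not overlap for any of them, with the double mutant lower, as for 25.0% of all genes. Of the 3 higher genes, the neighbour of g4728 was called there, as were 10.8% of all genes in that direction (log2 fold change 1.27 ± 0.21 SE, edgeR adjusted p = 0.00128). The other 2 were not called, g2015 at 0.98 ± 0.36 (edgeR adjusted p = 0.0572) and g1283 at 0.25 ± 0.58 (edgeR adjusted p = 0.786), both at low levels in those strains.

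The size of the change was compared between backgrounds by the test of the difference itself, which called 333 genes (5.35%) over all genes and 6 of the 14, all of them lower genes. In 5 of the 6 the fall was larger in the cyp61- background. For g904 the log2 fold change was -5.99 ± 0.37 there against -1.93 ± 0.31 here (difference 4.06 ± 0.45 SE, edgeR adjusted p = 0.000391). The exception was g4728, whose fall was smaller in the cyp61- background, -1.21 ± 0.18 against -2.44 ± 0.19 (difference -1.23 ± 0.26 SE, edgeR adjusted p = 0.0194). The difference includes the contrast by which the 14 genes were called and g4728 was picked as the largest fall. That choice favours a smaller fall in the other background. For the neighbour of g4728 the difference was 0.04 ± 0.30 (edgeR adjusted p = 0.940). With only the 12 libraries of the 4 strains in the fit, 4 of the 14 genes differed between backgrounds, against 23 (0.37%) of all genes. With these libraries and the letter as a block within each set, 8 of the 14 differed, against 849 (13.7%) of all genes.

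**Figure D5:**
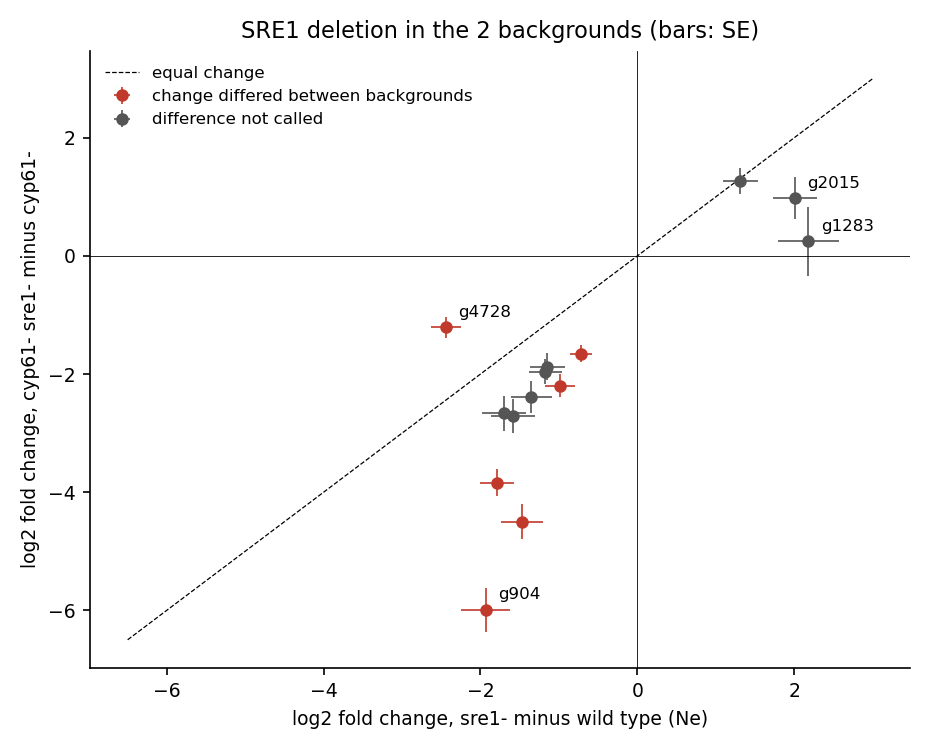
For the 14 called genes, the log2 fold change after SRE1 deletion in the wild-type background (horizontal) and in the cyp61- background (vertical), with SE bars; red points differed between backgrounds at an edgeR adjusted p under 0.05 and the dashed line marks equal change. The lower genes lie below the line except g4728, which lies above it.

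The mean CPM of the 11 lower genes was also compared between backgrounds, as ratios that cross the 2 sets of count tables. For 6 of the 11 the backgrounds differed more with SRE1 present, and for the rest more without it. The counts in this paragraph were not taken over all genes, so they describe these 11 genes alone. In the double mutant the mean was 0.304 to 2.03 times that in sre1-, with a median of 0.868, and 8 of the 11 genes were within 2-fold. The mean in cyp61- was 0.580 to 14.5 times that in wild type (Ne), with a median of 3.16, and 6 of the 11 genes were over 2-fold higher. Gene g904 was at 189 ± 79.9 CPM in wild type (Ne) against 2740 ± 861 CPM in cyp61-, and at 49.6 ± 8.58 CPM in sre1- against 43.0 ± 5.71 CPM in the double mutant (SD, n = 3). Gene g4728 was at 191 ± 30.6 CPM in wild type (Ne) against 165 ± 19.6 CPM in cyp61-, and at 35.1 ± 1.92 CPM in sre1- against 71.3 ± 5.88 CPM in the double mutant. The set of count tables and the background cannot be told apart in these ratios.

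Against wild type (N), 9 of the 11 lower genes were also lower in sre1-, 8 of them past the threshold, and all 3 higher genes were higher and past it. This comparison reuses the sre1- libraries by which the genes were picked, so part of the agreement is built in. It also crosses the sets of count tables and called 26.4% of all genes lower and 25.8% higher. In bulk RNA of a culture, fewer cells that express a gene and less RNA of it per cell cannot be told apart.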

How the data were processed

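RNA-seq was analysed in 18 libraries of 6 groups of 3. Per the file headers, the authors deposited total counts of reads per gene, not normalized, with a contig of the QXden1.PacBioOnly assembly beside each gene. Reads were paired-end and were mapped to an assembly of the species, per the design text in the labels. The counter, the gene models and the strand setting are unstated there. The submitters' processing notes list Bowtie2 2.3.5.1, SAMtools, edgeR and DESeq2 among their tools, without saying what each did. The columns of the wild type (Ne) table are headed like those of wild type (N) and were assigned by the table each sample's description names and by their letter. The ChIP-exo tables were not used here.

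Counts were tested with edgeR 4.0.16 (R 4.3.3) with filterByExpr, TMM scaling, a quasi-likelihood fit to the 18 libraries with a term for group alone, and Benjamini-Hochberg adjustment over all genes tested. Standard errors were the log2 fold change divided by the square root of F. CPM are TMM-scaled, and values within letter pairs use log2 CPM with a prior count of 2. The letters were taken as pairs. Deviations from the group means correlated across genes at 0.36, 0.53 and 0.64 between the A, B and C libraries of the strains. Wild type (Ne) A correlated better with sre1- B (0.56), and the C libraries carry most of this signal. Deviations within a group sum to 0, so a departure shared by the C libraries alone also raises the A and B values. The correlations therefore do not show that A belongs with A or B with B. Within wild type (Ne) and within sre1-, no libraries were repeats of each other (mean chi-square per gene between libraries of a strain, 16.8 to 315). Libraries of different groups, wild type (N) among them, were not compared in this way. Alternatives, among them DESeq2 1.42.0, are in the closing section. On simulated data the fits recovered the direction of the changes made. With the unequal spread of these groups and no deviation shared by letter, the fit to 18 libraries called unchanged genes far more often than its threshold allows. With a simulated deviation shared by letter, and the remaining spread of sre1- and wild type (Ne) lowered, it did not. Both were changed at once, so the outcome cannot be credited to either alone. The simulated deviation had the same size in A, B and C, whereas in these data the C libraries stood apart. The simulation therefore cannot tell how often the fit calls unchanged genes here. Named genes were the 2 with the largest fold change in each direction among called genes with a mean of at least 10 CPM over the 6 libraries and groups that did not overlap. The comparison, lists and rules were chosen with earlier results of these data known. No annotation was used, so lists of sterol and carotenoid genes were not analysed here.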

Additional observations from a re-analysis of the deposited data

Results flagged for a closer look

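The change after SRE1 deletion differed between the wild-type and the cyp61- background for 6 of the 14 called genes, by the test of the difference itself (edgeR adjusted p under 0.05, wild-type minus cyp61- background on the log2 scale). For g4728 the difference was -1.23, a larger fall in the wild-type background. For g904 it was 4.06, a larger fall in the cyp61- background. The other 4 genes also fell more in the cyp61- background, by 3.03 for a gene on contig 0 and by 2.05, 1.21 and 0.93 for 3 genes on contig 3. The wild-type side of each difference is the contrast by which the genes were called. That choice favours a larger fall in the wild-type background, as seen for g4728. The cause of these differences was not tested.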

How the results depend on the processing

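The count of 14 genes was 14 with RLE size factors and 15 without a filter on low counts. It was 25 with DESeq2, 1 with only the 6 libraries, 20 with these and the replicate letter as a block, 22 with the block within each set and all 18 libraries (added after seeing the data), 35 without both C libraries, 111 without them and with only the other 4 in the fit, and 3255 with wild type (N) as the control. Leaving out 1 library gave 3 to 37. The count of 333 genes whose change differed between backgrounds was 729 with DESeq2, 23 with only the 12 libraries compared, 849 with the replicate block added, 1245 without both C libraries and 52 to 1580 with 1 library left out. With RLE factors it was 370, 147 positive and 223 negative, against 166 and 167. Of the 14 genes, 6 were among them, 10 without both C libraries (against 20% of all genes) and 4 to 6 with 1 library left out. No named gene changed direction in any setting, but every setting shares libraries with the test that picked these genes. Settings that end the call of an individually described gene are given beside it, and the cause of these shifts was not tested. The block ended no call on a named gene. At these depths a 2-fold change of a transcript under 1 CPM could mostly not be excluded.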
